A study of Homo sapiens with 24 samples.

Results

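The alpha-globin cluster lies near the tip of the short arm of human chromosome 16 and holds 5 genes that encode globin chains or globin-like proteins: HBZ, HBM, HBA2, HBA1 and HBQ1. They were taken by symbol from the deposited table of 34213 genes, and all 5 were present and passed the filter on low counts. HBA1 and HBA2, whose transcripts are nearly the same, were also summed within each library. The cells were HEL, an established human erythroleukaemia line with an activating JAK2 mutation. Every group was this 1 line, and no group lacks the mutation. Cells were given the vehicle DMSO or 1 of 5 drugs that block JAK kinases, each at 500 nM. These were itacitinib, pacritinib, momelotinib, fedratinib and ruxolitinib. Treatment lasted 4 h or 48 h, which makes 12 groups, with 2 RNA-seq libraries per group and 24 in all. The labels do not say whether the libraries of a group came from separate cultures, so the variation between them may be technical. A p-value here rests on that variation, estimated over all 12 groups together and drawn toward that of other genes. A group whose 2 libraries lie further apart is therefore treated as varying like the rest. All 5 comparisons at a time share its 2 DMSO libraries.

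Haemoglobin is built from pairs of alpha-type and beta-type globin chains around haem. HBZ encodes zeta-globin, the alpha-type chain of the embryo. HBA1 and HBA2 encode the same alpha-globin protein of fetal and adult red cells. HBM (mu-globin) and HBQ1 (theta-globin) are expressed at lower levels in erythroid cells, and the function of their products is not settled. The cluster is driven in erythroid cells by distant enhancers that lie within the neighbouring gene NPRL3 and are bound by erythroid factors such as GATA1 and KLF1. JAK2 carries the signal of the erythropoietin receptor, and the drugs named here inhibit JAK kinases with differing selectivity.

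In GRCh38 with the GENCODE 29 annotation, all 5 genes lie on the plus strand of chromosome 16. HBZ (ENSG00000130656) spans 152687 to 154503, HBM (ENSG00000206177) 153892 to 166768, HBA2 (ENSG00000188536) 172876 to 173710, HBA1 (ENSG00000206172) 176680 to 177522, and HBQ1 (ENSG00000086506) 180453 to 181181. One annotated HBM transcript includes 205 bases (153892 to 154096) that are also exon of HBZ, so reads there cannot be given to 1 of the 2 genes. Of the 50-base windows of the main HBA1 transcript, 81.6% occur unchanged in that of HBA2, against 0 for every other pair of members. The separate HBA1 and HBA2 values are therefore uncertain, and their sum is the firmer measure.

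The RefSeq promoter table (GRCh38.p14) held 1 of the 5 genes, HBM. Its 250 bases before the transcription start, chr16:165728-165977 on the plus strand, are shown because HBM had the largest fold change of the cluster under ruxolitinib. Capitals mark the letters GATAA, the core of a site for GATA factors, and TATAA, the TATA box.
HBM: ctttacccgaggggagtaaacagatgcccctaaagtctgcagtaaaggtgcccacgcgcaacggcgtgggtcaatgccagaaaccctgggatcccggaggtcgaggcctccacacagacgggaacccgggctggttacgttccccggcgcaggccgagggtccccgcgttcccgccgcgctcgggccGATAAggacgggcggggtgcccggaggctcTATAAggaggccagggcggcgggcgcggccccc
On the strand shown, GATAA begins 63 bases and TATAA 33 bases before the start. The letters CACCC, the core of a site for KLF factors, occur on the opposite strand from 49 bases before the start, and CCAAT occurs on neither strand. Searched on both strands, with no overlap between these 3 matches, GATAA was found in 20.4%, CACCC in 54.7% and TATAA in 18.9% of 35116 promoter windows of this length. The matches describe the letters only, and binding was not measured.

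Total counts per library ran from 32153866 to 56618281, and the cluster took 0.0431% to 0.175% of them. Erythroid marker transcripts (GATA1, KLF1, EPOR, TFRC and ALAS2) were present in every library, but SLC4A1, the band 3 anion exchanger of mature red cells, had only 3 to 25 counts. The megakaryocyte marker ITGA2B was also present, at 22814 to 44772 counts. The 7 myeloid markers summed to 37.4 to 45.2 CPM over all groups, with LYZ (lysozyme) at 1088 to 2070 counts and CEBPA at 27 to 199, while the neutrophil genes MPO and ELANE had at most 8 and 4 counts. The 6 lymphoid markers summed to 24.8 to 36.2 CPM, with CD2 at 766 to 1447 counts and the B-cell gene CD79A at 106 to 355, while MS4A1 had at most 1. In bulk RNA, more cells that express a gene and more RNA per expressing cell cannot be told apart.

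Levels are CPM, the count divided by the TMM-scaled library total and set to a common total, and per kilobase of exon where genes are compared with each other. Per kilobase, HBA1 and HBA2 together made up 92.3% to 95.2% of alpha-type globin RNA in the 24 libraries. HBQ1 made up 2.71% to 6.02%, HBZ 1.35% to 2.19%, and HBM the small remainder. The adult-type genes thus gave most of the alpha-type RNA in all 12 groups. Theta-globin RNA exceeded zeta-globin RNA per kilobase in every group mean.

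After 48 h of ruxolitinib all 5 genes of the cluster were higher than in DMSO, by 2.36-fold to 7.01-fold, where 12.5% of all 16076 tested genes were called higher and 25.7% were called in either direction. A gene was called at an adjusted p under 0.05 in edgeR's quasi-likelihood test with Benjamini-Hochberg adjustment over all tested genes. The median log2 fold change of the 5 genes was 2.26, against 0.01 over all tested genes.

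Embryonic HBZ stood at 34.6 and 32.4 CPM in the ruxolitinib libraries at 48 h and at 7.65 and 5.26 CPM in the DMSO libraries. Both treated libraries were far above both controls. The log2 fold change was 2.37 ± 0.14 (SE; n = 2 against 2 libraries; edgeR adjusted p = 3.00e-15), or 5.19-fold with a 95% interval of 2.10 to 2.65 on the log2 scale.

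The adult-type pair HBA1 and HBA2 summed to 1703 and 1554 CPM with ruxolitinib at 48 h, against 408 and 402 CPM with DMSO. The groups did not overlap, and the log2 fold change was 2.01 ± 0.10 (SE, n = 2 against 2; edgeR adjusted p = 1.66e-16), which is 4.02-fold. Taken alone, HBA2 changed by 2.26 and HBA1 by 1.82 on the log2 scale. HBA2 supplied 45.0% and 46.8% of the summed counts in the 2 ruxolitinib libraries and 37.7% to 41.5% in the other 22. That share depends on how reads common to both genes were assigned, and the difference between the changes of HBA1 and HBA2 was not tested.

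HBM was the lowest member, with 116 and 94 counts in the ruxolitinib libraries at 48 h and 15 and 17 in the DMSO libraries. Its log2 fold change of 2.81 ± 0.39 (SE, n = 2 against 2; edgeR adjusted p = 1.18e-06) was the largest of the cluster and had the widest interval, 2.01 to 3.61. HBQ1 moved least: 31.3 and 33.4 CPM against 13.2 and 14.3 CPM, a log2 fold change of 1.24 ± 0.10 (SE, n = 2 against 2; edgeR adjusted p = 2.14e-11).

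**Figure D1:**
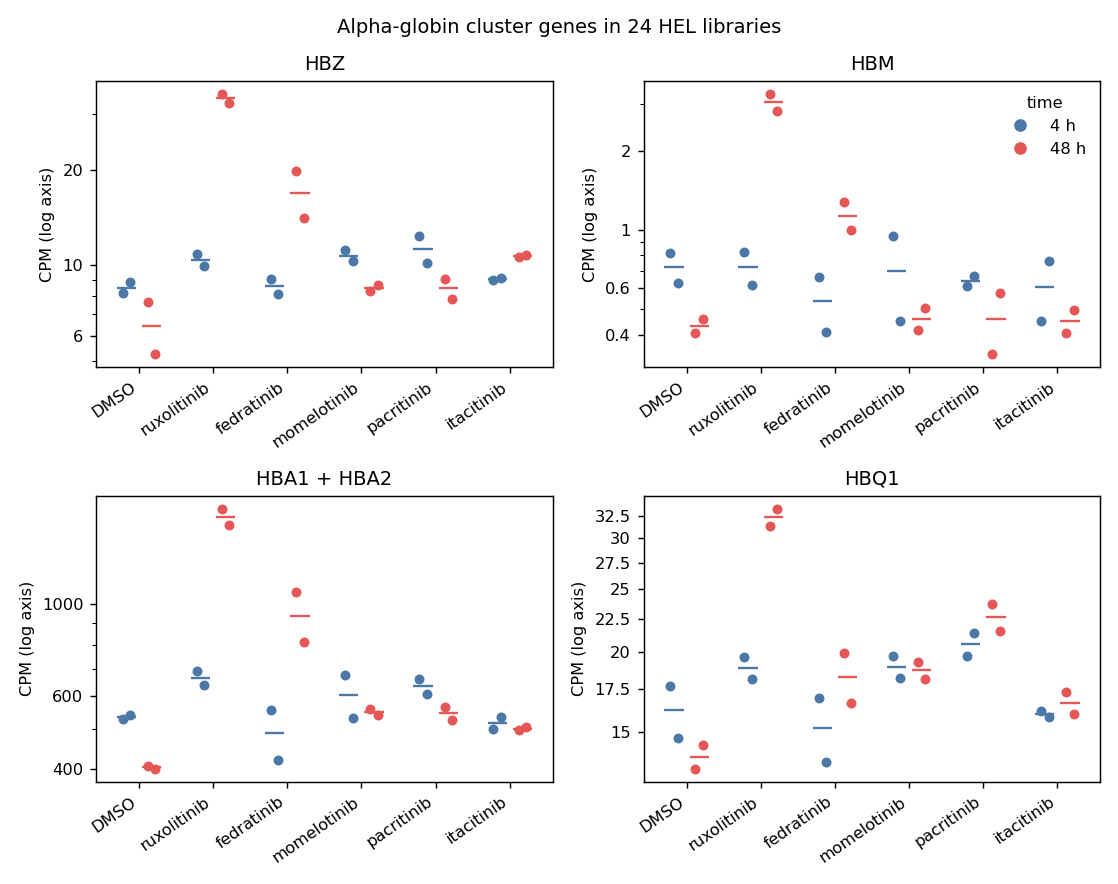
Levels of HBZ, HBM, the sum of HBA1 and HBA2, and HBQ1 in each of the 24 libraries, in CPM on log axes; points are libraries (blue 4 h, red 48 h) and bars are means of 2. Ruxolitinib at 48 h is the highest group in all 4 panels, and fedratinib at 48 h is the second highest for HBZ, HBM and the HBA sum.

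Fedratinib at 48 h also raised all 5 genes, where 3.66% of all tested genes were called higher and 7.7% in either direction. HBZ was at 19.8 and 14.1 CPM, a log2 fold change of 1.39 ± 0.14 (SE, n = 2 against 2; edgeR adjusted p = 4.29e-08). The HBA sum was at 1070 and 810 CPM, a change of 1.21 ± 0.10 on the same scale (edgeR adjusted p = 6.46e-10), or 2.32-fold. Both stayed called in all 12 alternatives run. HBM had 44 and 39 counts (log2 fold change 1.38 ± 0.42, edgeR adjusted p = 0.0360) and lost its call when any 1 of the 4 libraries was left out. HBQ1, at 19.9 and 16.7 CPM, rose by 0.41 ± 0.11 on the log2 scale (edgeR adjusted p = 0.0134) and kept its call in 1 of 4 such fits. The 2 fedratinib libraries lay further apart than those of most groups: leaving out either one moved the log2 change of the HBA sum to between 0.996 and 1.39, and it stayed called.

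The other inhibitors gave smaller differences at 48 h than ruxolitinib, and, except for HBQ1, smaller ones than fedratinib. HBQ1 rose by 0.72 with pacritinib and 0.45 with momelotinib on the log2 scale, against 0.41 with fedratinib. With momelotinib, HBA2 (log2 fold change 0.55) and HBQ1 (0.45) were called higher, 2 of 5 where 0.995% of all tested genes were called higher and 1.94% in either direction. The HBA sum was at 558 and 542 CPM, 0.44 ± 0.10 above DMSO on the log2 scale (edgeR adjusted p = 0.0137), and this call was lost when any 1 of the 4 libraries was left out (adjusted p 0.0732 to 0.169). In the same fits HBQ1 was called in 0 of 4 and HBA2 in 2 of 4 (not without DMSO replicate 2 or momelotinib replicate 1). With pacritinib, HBA1 (0.40), HBA2 (0.47) and HBQ1 (0.72) were called higher, 3 of 5 against 8.26% of all tested genes called higher and 18.3% in either direction. Its HBA sum of 565 and 527 CPM was 0.43 ± 0.10 above DMSO (edgeR adjusted p = 0.00206), and HBQ1 stood at 23.7 and 21.6 CPM (adjusted p = 6.45e-06). HBA1 lost its call without pacritinib replicate 1 (adjusted p = 0.066). With itacitinib only HBZ was called, 1 of 5 where 0.0871% of all tested genes were called higher and 0.442% in either direction. HBZ was at 10.6 and 10.8 CPM, 0.73 ± 0.14 above DMSO (edgeR adjusted p = 0.0106). Without the lower DMSO library (replicate 2) the HBZ difference was 0.48 with an adjusted p of 0.323, and it was also not called without itacitinib replicate 2.

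The DMSO controls themselves moved between the times. The HBA sum fell from 530 and 541 CPM at 4 h to 408 and 402 CPM at 48 h, a log2 change of -0.40 ± 0.10 (SE, n = 2 against 2; edgeR adjusted p = 0.00824). HBA1 and HBA2 were called lower, 2 of 5 members where 4.12% of all tested genes were called lower and 8.16% in either direction. HBZ (-0.40), HBQ1 (-0.23) and HBM (-0.72) were not called. The call on the sum held in 1 of the 4 fits that leave out a library and was lost with DESeq2 (adjusted p = 0.0518). HBA2 was called in all 4 such fits and HBA1 in 0 of 4, and HBA1 was also not called with DESeq2 (adjusted p = 0.123). At 48 h the HBA sum with momelotinib, pacritinib and itacitinib lay between 498 and 565 CPM, a range that includes both DMSO values at 4 h. Ruxolitinib and fedratinib at 48 h were above every 4 h library, whose highest value was 690 CPM.

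**Figure D2:**
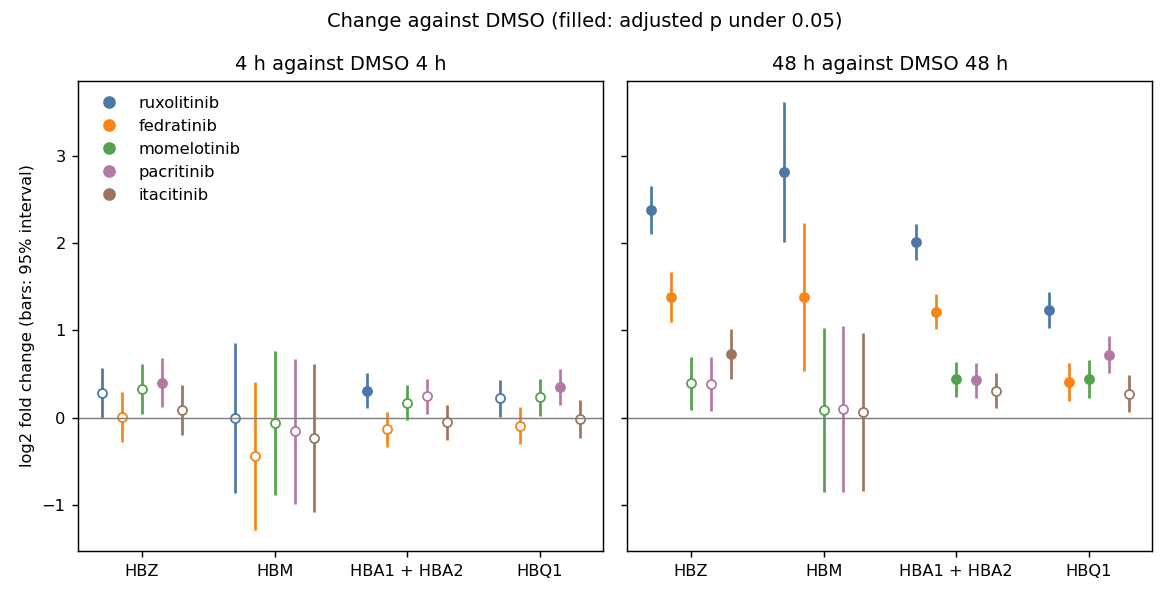
Log2 fold change against DMSO of the same time for 4 measures of the cluster and 5 inhibitors, 4 h on the left and 48 h on the right; bars are 95% intervals and filled points have an adjusted p under 0.05. At 48 h the ruxolitinib values run from 1.24 to 2.81, above those of every other inhibitor for each measure.

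At 4 h the differences were small. With ruxolitinib HBA1 alone was called (0.33 on the log2 scale, edgeR adjusted p = 0.0341), 1 of 5 where 3.42% of all tested genes were called higher and 8.47% in either direction. The HBA sum was 690 and 638 CPM against 530 and 541 CPM (log2 fold change 0.31 ± 0.10, edgeR adjusted p = 0.0446), a call that was lost when any 1 of the 4 libraries was left out and with DESeq2 (adjusted p = 0.177). HBA1 likewise was called in 0 of 4 such fits and not with DESeq2 (adjusted p = 0.149). With pacritinib HBZ (0.40), HBA1 (0.26) and HBQ1 (0.35) were called higher, 3 of 5 where 13.1% of all tested genes were called higher and 30.6% in either direction. In the fits that leave out a library HBZ was called in 1 of 4, HBA1 in 0 of 4 and HBQ1 in 2 of 4 (not without DMSO replicate 2, where it was 0.22, or pacritinib replicate 2). HBA1 was also not called with DESeq2 (adjusted p = 0.167). No member was called with fedratinib, momelotinib or itacitinib at 4 h, where 1.59%, 6% and 0.778% of all tested genes were called. Fedratinib changed the HBA sum by -0.13 with a 95% interval of -0.33 to 0.07, so a rise of the size seen at 48 h lies outside that interval.

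The change against DMSO differed between the times for ruxolitinib and fedratinib. For ruxolitinib the 48 h change exceeded the 4 h change for all 5 genes, where 4.32% of all tested genes were called in that direction and 8.72% in either. The excess was 2.09 ± 0.20 for HBZ, 2.81 ± 0.57 for HBM, 1.70 ± 0.14 for the HBA sum and 1.01 ± 0.15 for HBQ1 on the log2 scale (edgeR adjusted p = 2.50e-09, 0.000943, 1.50e-10 and 9.16e-06). For fedratinib HBZ (1.38 ± 0.20) and the HBA sum (1.35 ± 0.14) differed between the times (edgeR adjusted p = 6.48e-05 and 5.10e-07), and 3 of 5 genes were called, where 2% of all tested genes were called higher and 4.12% in either direction. For momelotinib, pacritinib and itacitinib no member was called, where 2.33%, 17.9% and 0.0124% of all tested genes were.

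The 5 inhibitors were compared with each other at the one dose of 500 nM in 10 pairs per time. Each pair was tested over all genes from the same fit to all 24 libraries as the comparisons with DMSO. At 48 h ruxolitinib was above each of the other inhibitors for HBZ, HBM, the HBA sum and HBQ1. Of all tested genes, 10.1%, 10.3%, 12.8% and 11.7% were called higher with ruxolitinib than with fedratinib, momelotinib, pacritinib and itacitinib. The nearest inhibitor for the HBA sum was fedratinib, with a difference of 0.79 ± 0.10 on the log2 scale (edgeR adjusted p = 1.50e-07), and for HBZ also fedratinib, with 0.99 ± 0.12 (adjusted p = 1.49e-07). For HBQ1 the nearest was pacritinib, with 0.52 ± 0.10 (edgeR adjusted p = 0.000142). HBM differed from fedratinib by 1.43 (edgeR adjusted p = 0.00267), a call that was lost without fedratinib replicate 2 (adjusted p = 0.0562).

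Fedratinib in turn was above momelotinib, pacritinib and itacitinib, by 0.77, 0.78 and 0.91 for the HBA sum and by 0.99, 1.00 and 0.66 for HBZ on the log2 scale, with edgeR adjusted p of 0.00133 or less. Without fedratinib replicate 1 the HBZ difference from itacitinib was 0.39 and not called (adjusted p = 0.195). In these 3 pairs 2.87%, 6.48% and 3.47% of all tested genes were called higher. Momelotinib, pacritinib and itacitinib were not told apart for the HBA sum: the differences were 0.01 (95% interval -0.19 to 0.21) for momelotinib against pacritinib, 0.13 (-0.07 to 0.33) for momelotinib against itacitinib and 0.12 (-0.08 to 0.32) for pacritinib against itacitinib, pairs in which 8.07%, 1.01% and 15.6% of all tested genes were called. For HBQ1 pacritinib was above itacitinib by 0.44 ± 0.10 (edgeR adjusted p = 0.00214) and above fedratinib by 0.31 (adjusted p = 0.0414; 0.0535 with DESeq2). With each library left out in turn, the former was called in 2 of 4 fits (not without itacitinib replicate 2 or pacritinib replicate 1) and the latter in 1 of 4, with log2 differences of fedratinib minus pacritinib from -0.44 to -0.18. In the former pair 8.14% of all tested genes were called in that direction, and in the latter 5.52%.

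**Figure D3:**
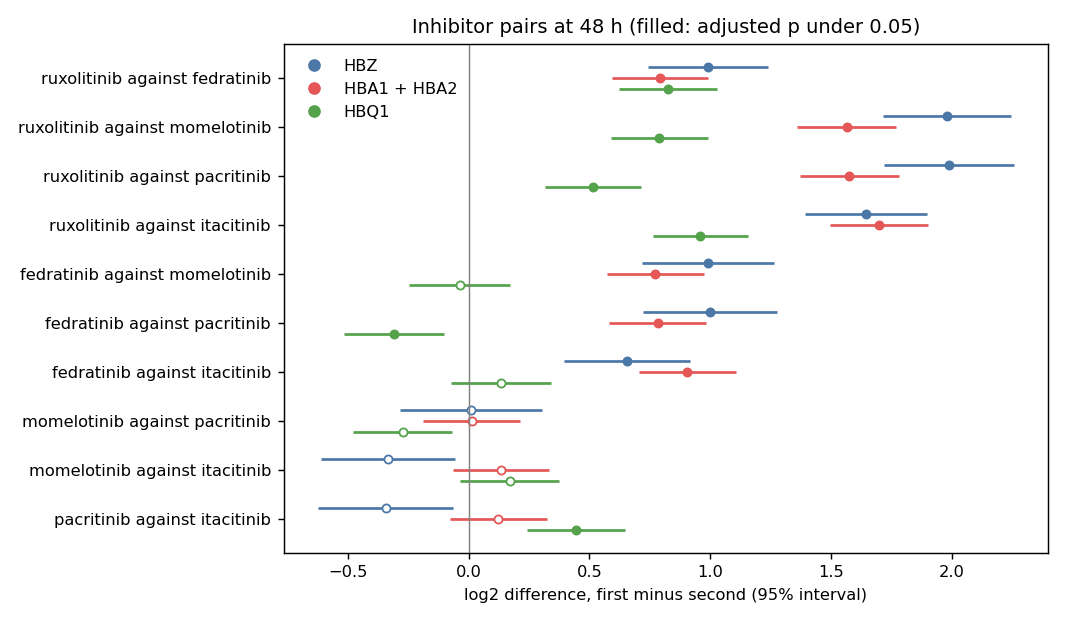
Differences between inhibitors at 48 h for HBZ, the HBA sum and HBQ1 (log2, first minus second) with 95% intervals; filled points have an adjusted p under 0.05. All 4 ruxolitinib pairs are above 0 for the 3 measures, and the 3 pairs among momelotinib, pacritinib and itacitinib straddle 0 for the HBA sum.

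At 4 h the HBA sum was higher with ruxolitinib than with fedratinib (0.44 ± 0.10, edgeR adjusted p = 0.00650) and itacitinib (0.36 ± 0.10, adjusted p = 0.0227), pairs in which 1.4% and 2.29% of all tested genes were called in that direction. It was also higher with pacritinib than with fedratinib (0.38, adjusted p = 0.00364) and itacitinib (0.30, adjusted p = 0.0216), where 12.1% and 12.6% were called in that direction. None of these 4 calls held in every alternative. With each library left out in turn, ruxolitinib against fedratinib was called in 2 of 4 fits, and was 0.25 without fedratinib replicate 2 (adjusted p = 0.358) and 0.38 without ruxolitinib replicate 1 (0.123). Ruxolitinib against itacitinib was called in 1 of 4, the fit without ruxolitinib replicate 2. Fedratinib against pacritinib was called in 2 of 4, and was -0.19 without fedratinib replicate 2 (0.217) and -0.32 without pacritinib replicate 1 (0.0556). Pacritinib against itacitinib was called in 2 of 4, not without replicate 1 of either drug. Both itacitinib pairs were also not called with DESeq2 (adjusted p = 0.0993 and 0.103).

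The beta-globin cluster on chromosome 11 encodes the partner chains: embryonic HBE1, fetal HBG1 and HBG2, and adult HBD and HBB. With ruxolitinib at 48 h, 4 of its 5 genes were called higher, where 12.5% of all tested genes were. Their changes were smaller than those in the alpha cluster. HBG2 went from 1798 and 1785 CPM with DMSO to 2963 and 2957 CPM, a log2 fold change of 0.72 ± 0.06 (edgeR adjusted p = 2.69e-11). HBG1 rose by 0.69, HBE1 by 0.43 and HBB by 0.43 on the log2 scale, and HBD (0.19) was not called. HBG1 and HBG2 are also near-identical copies, so their split is uncertain. With fedratinib HBG2 (0.26) and HBE1 (0.23) were called higher, where 3.66% of all tested genes were. With pacritinib HBE1 (-0.44) and HBB (-0.53) were called lower while HBA1, HBA2 and HBQ1 were higher. In that comparison 18.3% of all tested genes were called in either direction. With momelotinib and itacitinib no beta-type gene was called, where 1.94% and 0.442% of all tested genes were called in either direction.

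Summed per kilobase, alpha-type counts were 0.217 and 0.215 of beta-type counts in the 2 DMSO libraries at 48 h. The ratio was 0.548 and 0.510 with ruxolitinib and 0.432 and 0.385 with fedratinib. It lay between 0.237 and 0.324 with the other 3 inhibitors at 48 h and between 0.222 and 0.312 in all 4 h libraries. The ruxolitinib and fedratinib libraries at 48 h were thus the 4 highest of the 24. The ratios are given as values without a test.

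**Figure D4:**
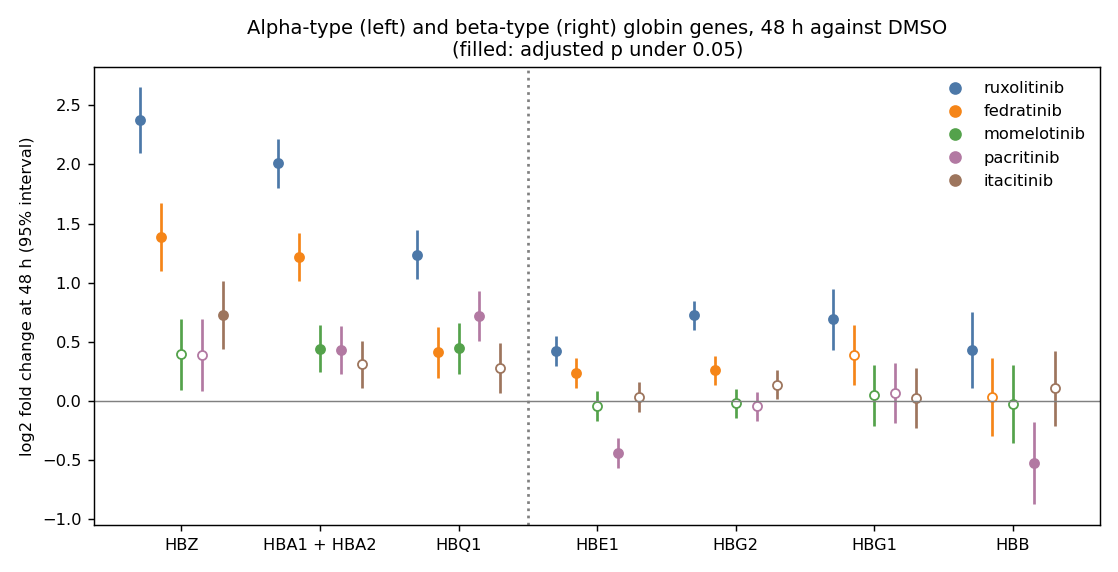
Log2 fold change against DMSO at 48 h for alpha-type genes (left of the dotted line) and beta-type genes (right), with 95% intervals; filled points have an adjusted p under 0.05. HBM and HBD are not drawn. With ruxolitinib the alpha-type values drawn are 1.24 to 2.37 and the beta-type values 0.43 to 0.72.

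**Figure D5:**
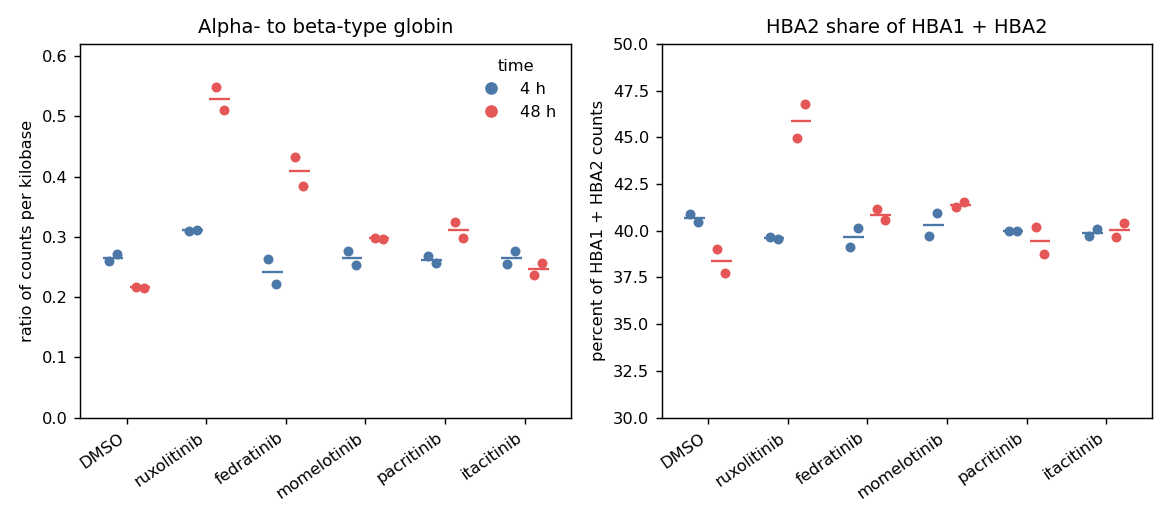
Left, the ratio of alpha-type to beta-type globin counts per kilobase in each library; right, the percent of HBA1 and HBA2 counts given to HBA2 (axis from 30 to 50); bars are means of 2 libraries. The ruxolitinib libraries at 48 h are highest in both panels, at 0.548 and 0.510 and at 45.0% and 46.8%.

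Genes of haem metabolism mostly moved with the cluster under ruxolitinib, where 12.5% of all tested genes were called higher and 13.2% lower. Haem is the iron-binding group that globin chains hold. Of 16 tested genes of haem synthesis and haemoglobin assembly, 13 were higher and 2 lower at 48 h. Their median log2 fold change was 0.56, against 0.01 over all tested genes. The list also holds HMOX1 and BLVRB, which are not enzymes of haem synthesis. ALAS2, the erythroid enzyme that starts haem synthesis, rose from 36.3 and 35.3 CPM to 133 and 135 CPM (log2 fold change 1.90 ± 0.08, edgeR adjusted p = 6.40e-18). BLVRB, which reduces biliverdin, rose by 1.73 and ALAD by 1.25, while ALAS1, the form of the enzyme used in most tissues, fell by 0.70 and HMOX1, which degrades haem, fell by 0.97 on the log2 scale. With fedratinib 7 of the 16 were higher and 2 lower, where 3.66% of all tested genes were called higher and 4.04% lower, led by BLVRB (0.59) and ALAS2 (0.57). ALAS2 was also called higher at 48 h with momelotinib (0.42, edgeR adjusted p = 0.0064) and itacitinib (0.36, adjusted p = 0.0431), but not with pacritinib (0.22). AHSP, the chaperone of free alpha-globin, had 8 and 6 counts with ruxolitinib at 48 h, 0 in both DMSO libraries and at most 2 in every other library. It was too low to be tested.

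Of 24 genes of the red cell membrane, 21 were higher with ruxolitinib at 48 h (12.5% of all tested genes), among them ADD2 (1.05), which encodes an adducin chain, and SPTB (0.99). With fedratinib 5 were higher and 1 was lower (3.66% and 4.04% of all tested genes). Erythroid markers summed to 2550 to 2559 CPM with ruxolitinib at 48 h and 1423 to 1450 CPM with DMSO, with 6 of 7 called higher. With fedratinib they summed to 1464 to 1488 CPM, with ALAS2 and EPOR called of the 7. The erythroid sum was higher with pacritinib, at 1823 to 1925 CPM with 3 of 7 called. It was 1480 to 1481 CPM with momelotinib and 1509 to 1588 CPM with itacitinib, with 1 of 7 called in each. The megakaryocyte sum was 1236 to 1262 CPM with ruxolitinib, 1283 to 1299 CPM with fedratinib and 1134 to 1148 CPM with DMSO. The part of cell composition in the globin changes was not tested.

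Among 36 tested regulators of erythroid genes and globin switching, 13 were higher and 9 lower with ruxolitinib at 48 h (12.5% and 13.2% of all tested genes), with a median of 0.01. KLF1, an activator of globin genes, rose by 0.52 ± 0.05 (edgeR adjusted p = 3.33e-09) and LMO2, a member of the GATA1 complex, by 0.59, whereas GATA1 rose by 0.14. BCL11A, a repressor of fetal globin, fell by 0.45, and LIN28B fell by 0.47. With fedratinib KLF1 was at 136 and 128 CPM against 134 and 134 CPM in DMSO (log2 fold change -0.02, edgeR adjusted p = 0.887) and GATA1 changed by 0.04 (adjusted p = 0.695), while LMO2 (0.25) was higher and BCL11A (-0.35) lower. Tested directly, KLF1 was 0.54 ± 0.05 higher with ruxolitinib than with fedratinib on the log2 scale (edgeR adjusted p = 1.88e-09), and GATA1 differed by 0.10 (adjusted p = 0.138).

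Of 16 tested neighbours on 16p13.3, MPG (0.45) and NPRL3 (0.19) were called higher with ruxolitinib at 48 h and none with fedratinib, with medians of 0.06 and 0.10. The count of 2 of 16 is no larger a share than the 12.5% of all tested genes called higher with ruxolitinib.

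Among 11 genes known to respond to JAK-STAT signals, 8 were lower and 1 higher at 48 h with ruxolitinib (13.2% and 12.5% of all tested genes), including SOCS3 (-1.69), PIM1 (-0.69) and CISH (-0.33). With fedratinib at 48 h none was lower and 2 were higher, PIM2 by 0.22 and BCL2L1 by 0.22 (edgeR adjusted p = 0.0153 and 0.00148), where 4.04% and 3.66% of all tested genes were called. The log2 fold changes of CISH and PIM1 were 0.17 and -0.04. At 4 h 10 of 11 were lower with ruxolitinib and 4 of 11 with fedratinib, against 5.04% and 0.97% of all tested genes. Also at 4 h, 9 were lower with pacritinib, 8 with momelotinib and 0 with itacitinib. In these comparisons 30.6%, 6% and 0.778% of all tested genes were called in either direction. At 48 h 5 were higher and 1 lower with pacritinib, and none was called with momelotinib or itacitinib. There 18.3%, 1.94% and 0.442% of all tested genes were called in either direction.

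Across the 12 group means, the levels of the members were alike, with Pearson's r of 0.995 between HBA1 and HBA2, 0.974 between HBZ and the HBA sum, and 0.733 to 0.846 between HBQ1 and the others. Of 9440 genes ranked by likeness to HBZ, the first 5 were TF, FAXDC2, MFGE8, UROD and BLVRB (r = 0.963 to 0.933). For the HBA sum they were MFGE8, TF, BLVRB, NR1H2 and ZFYVE21 (r = 0.966 to 0.935). The 2 groups of highest level, ruxolitinib and fedratinib at 48 h, weigh heavily in these values, which are given as descriptions over 12 points that share controls and libraries.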

How the data were processed

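The authors' deposited table holds raw counts per gene for 24 libraries. Per the submitters' processing notes, bcl2fastq, STAR 2.5.1a and the build GRCh38 were used; the sources used here do not give the counting tool, annotation or strand setting. Of 34343 rows, 130 repeated an ID with identical counts and were dropped, leaving 34213 genes. From these counts 16076 genes passed edgeR's filterByExpr. One mean per group was fitted over all 24 libraries with edgeR 4.0.16 (R 4.3.3; TMM, quasi-likelihood, Benjamini-Hochberg over all tested genes), and again with HBA1 and HBA2 summed. Exon lengths came from GENCODE 29. No pair of replicate libraries agreed within sampling noise. The steps were tested on simulated data. A first run missed some large changes in genes of low counts, so recovery was afterwards required only of genes with higher counts. Every member is named, and of each other list the called genes of largest change, at most 4 per comparison and direction, plus a few always given. The members and lists were chosen with earlier results of these data known. Alternatives were DESeq2 1.42.0, RLE scaling, 2 other filters, 1 time point at a time, a replicate block, removal of RN7SL and MT-RNR genes, each library left out, and, chosen after seeing the data, robust empirical Bayes. The labels do not say that a replicate number marks a shared culture or day, and the numbers were not treated as pairs.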

Additional observations from a re-analysis of the deposited data

Results flagged for a closer look

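The changes against DMSO that differed between 48 h and 4 h, each by edgeR's quasi-likelihood test of the difference itself, were as follows on the log2 scale. For ruxolitinib the 48 h change exceeded the 4 h change by 2.09 for HBZ, 2.81 for HBM, 1.49 for HBA1, 1.99 for HBA2, 1.70 for the sum of HBA1 and HBA2, and 1.01 for HBQ1. For fedratinib the excess was 1.38 for HBZ, 1.26 for HBA1, 1.478 for HBA2 and 1.35 for the sum. Each change is relative to DMSO of its own time, and the DMSO level of the HBA sum fell by 0.40 between the times.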

How the results depend on the processing

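At 48 h the changes with ruxolitinib (HBZ, HBM, HBA1, HBA2, HBQ1) and with fedratinib (HBZ, HBA1, HBA2), and the sum of HBA1 and HBA2 with both, kept their direction and call in every alternative that gave an adjusted p. All values here are log2 differences from edgeR unless another tool is named, and the cause of each loss or gain was not tested. With DESeq2 the HBA sum was -0.40 for DMSO 48 h against 4 h (adjusted p = 0.0518) and 0.31 for ruxolitinib at 4 h, both no longer called. DESeq2 gave no adjusted p for 12 of 112 results, 3 of them called by edgeR (HBM with fedratinib, HBZ with itacitinib, and HBM for fedratinib against itacitinib, all at 48 h). Robust empirical Bayes, added after seeing the data, ended 14 calls: the HBA sum was -0.40 over time in DMSO (adjusted p = 0.12), 0.44 with momelotinib (0.155) and 0.43 with pacritinib (0.0604) at 48 h, and 0.31 with ruxolitinib at 4 h (0.268). With 1 time point fitted alone the HBA sum was 0.31 with ruxolitinib at 4 h, no longer called, while itacitinib at 48 h (HBA sum 0.32) and pacritinib at 48 h (HBZ 0.40) gained calls. With no low-count filter calls were gained by the HBA sum with itacitinib at 48 h (0.31), momelotinib at 4 h (0.18) and pacritinib at 4 h (0.25) and by HBZ over time in DMSO (-0.41) and with pacritinib at 48 h (0.38). For the HBA sum with fedratinib at 48 h that setting gave an adjusted p of 3.34e-155 against 6.46e-10 with the filter. The HBA sum with pacritinib at 4 h, not called at an adjusted p of 0.0552, was called with RLE scaling (0.26), the stricter filter (0.26) and without RN7SL and MT-RNR genes (0.25). HBM with ruxolitinib at 4 h, near 0, changed sign with no filter (0.0024), RLE scaling (0.0038) and without RN7SL and MT-RNR genes (0.0024).

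With the replicate number as a block, no call was lost and 7 were gained, among them the HBA sum with pacritinib at 4 h (0.24), HBZ over time in DMSO (-0.42) and HBZ with pacritinib at 48 h (0.39); HBZ with fedratinib at 4 h turned to -0.0014. The numbers were not used as pairs: deviations of same-numbered libraries correlated at r from -0.346 to 0.380 over 66 pairs of groups, above 0.1 in 18 and below 0 in 29. All 15 pairs among 6 groups (ruxolitinib, fedratinib, momelotinib and pacritinib at 4 h, fedratinib and itacitinib at 48 h), chosen after the values were seen, lay between 0.119 and 0.380.

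Leaving out a library leaves a group with 1, which is assumed to vary like the others. The HBA sum ranged from -0.43 to -0.39 over time in DMSO (called in 1 of 4 fits), 0.42 to 0.46 with momelotinib at 48 h (0 of 4) and 0.25 to 0.37 with ruxolitinib at 4 h (0 of 4). HBZ ranged from -0.70 to -0.16 over time in DMSO (1 of 4), 0.48 to 1.02 with itacitinib at 48 h (2 of 4), 0.13 to 0.67 with pacritinib at 48 h (1 of 4) and 0.26 to 0.54 with pacritinib at 4 h (1 of 4). Differences near 0 changed sign. The HBA sum ranged from -0.35 to 0.055 with fedratinib and -0.017 to 0.34 with momelotinib at 4 h, and -0.032 to 0.069 for momelotinib against pacritinib at 48 h. HBA1 ranged from -0.34 to 0.091 with fedratinib, -0.079 to 0.0083 with itacitinib and -0.024 to 0.36 with momelotinib at 4 h, and HBA2 with momelotinib from -0.0084 to 0.30. HBZ with fedratinib at 4 h ranged from -0.074 to 0.080. HBQ1 at 4 h ranged from -0.26 to 0.071 with fedratinib and -0.15 to 0.11 with itacitinib. HBM at 4 h ranged from -0.21 to 0.21 with ruxolitinib, -0.66 to 0.39 with momelotinib, -0.34 to 0.020 with pacritinib and -0.67 to 0.086 with itacitinib, and at 48 h from -0.058 to 0.22 with momelotinib, -0.36 to 0.41 with pacritinib and -0.092 to 0.19 with itacitinib. HBM, at 11 to 116 counts a library, is the member that depth limits most.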
